A study of Cucumis melo with 4 samples.

Results

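Transcripts of gynoecious melon (Cucumis melo) plants, which bear female flowers only, were set against those of 3 other sex types. These were monoecious plants (male and female flowers), hermaphrodite plants (bisexual flowers) and andromonoecious plants (male and bisexual flowers). Each sex type was 1 bulk of recombinant inbred lines and 1 RNA-seq library, so the comparison is of 1 library with 3. All 76260 assembled unigenes, transcripts built from the reads, entered it, and 11737 of them carried the name of a melon coding sequence (CDS). The sample labels give the genotype at the loci a and g as AAgg for the gynoecious, AAGG for the monoecious, aaGG for the hermaphrodite and aagg for the andromonoecious plants. The headers of other deposited tables exchange the last 2. The gynoecious bulk was thus the one bulk labelled AAgg, and no other bulk shared both of its alleles.

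Every bulk mixed total RNA from true leaves, axillary buds with fresh leaves, young flower buds and flower buds close to opening. In such a mixture, fewer cells of a type and less RNA per cell cannot be told apart. The lines in each bulk differ in other segregating genes too, and no bulk was sequenced again. Per the labels, 1 flow cell held the gynoecious, monoecious and andromonoecious libraries and a different flow cell the hermaphrodite. A library is called by its sex type below.

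Flower sex in melon is set by which organ primordia are arrested in the bud. The a locus is known as an ACC synthase gene, which makes the precursor of the gas ethylene in female buds, where it holds back the stamens. The g locus is known to encode a zinc finger protein of the WIP type that holds back the carpels, and plants without its function form no male flowers. Andromonoecious plants bear male flowers, so by this account the exchanged order matches them and the sample labels do not. That order gives aaGG to the andromonoecious and aagg to the hermaphrodite plants, and the latter would share gg with the gynoecious. The genotypes were not tested here. No unigene was labelled as locus a or g in the files, and no unigene sequences or genome coordinates were used here. Some unigenes were named as ACC synthases, ACC synthase 7 (Unigene78052) among them, and are given below. Whether any of them is the a locus was not tested.

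Depth was similar, with 26.1 M reads in the gynoecious library and 25.5 to 27.0 M in the 3 others. Between 66492 and 69811 unigenes had a read in a library, 68657 of them in the gynoecious. Across 34861 unigenes with at least 100 reads in all, the gynoecious library had Spearman correlations of 0.838 with the monoecious, 0.873 with the andromonoecious and 0.893 with the hermaphrodite library. The 3 others correlated with each other at 0.907 to 0.916. These values describe the libraries over the same unigenes, which are not independent. Markers of leaf and stomata were read in every library. The summed level of 7 well matched leaf markers was 144 TMM-scaled reads per M reads (RPM) in the monoecious, 86.6 in the gynoecious, 108 in the hermaphrodite and 101 in the andromonoecious library. Of the 5 with at least 100 reads, 2 lay above all 3 others and 1 below. Over all 27 named leaf markers, weak matches included, reads summed to 8650, 9470, 9880 and 8400 in the same order, and the gynoecious library was not lowest. The summed level of 4 well matched stomatal markers was 44.3, 29.0, 36.5 and 66.9 RPM. The petal and stamen list had 1 well matched marker, with 10 monoecious, 25 gynoecious, 18 hermaphrodite and 0 andromonoecious reads.

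Among unigenes with at least 100 reads in all, far more stood far below the 3 other libraries than far above them. A unigene was counted when its gynoecious level lay at least 4-fold beyond the nearest of the 3 others, on reads scaled between libraries by the trimmed mean of M values (TMM), with 1 read added. At this distance 165 of 34861 unigenes (0.473%) lay above all 3 and 798 (2.29%) lay below all 3. Of the 7154 with a CDS name, 31 (0.433%) lay above and 182 (2.54%) below. At 2-fold the named unigenes numbered 323 above (4.51%) and 578 below (8.08%), and all unigenes 1551 above (4.45%) and 2707 below (7.77%). Without any distance the directions were nearly even, since the gynoecious value was the highest of 4 for 31.4% and the lowest for 30.6% of the named unigenes. Its gap to the nearest library exceeded the whole range of the 3 others upward for 3334 unigenes (9.56%) and downward for 3926 (11.3%), or for 9.38% and 11.8% of the named ones. The minimum of 100 reads was summed over all libraries. A unigene low only in the gynoecious library passed it more readily than a unigene high only there. No test was made of these counts.

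The same count for each of the other libraries against its own 3 was smaller. The monoecious library stood at least 4-fold above for 111 unigenes and below for 290. The hermaphrodite had 19 above and 112 below, and the andromonoecious 65 above and 88 below. Every library had more unigenes below than above at this read minimum. The gynoecious count below was thus 798 where the next was 290. Of these 798, 131 (16.4%) had no gynoecious read at all. The nearest of the 3 was the hermaphrodite library for 406 (50.9%), the monoecious for 252 and the andromonoecious for 140. Without the hermaphrodite library, which leaves 1 flow cell, 293 lay above and 1102 below, and without the andromonoecious 293 lay above.

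**Figure D1:**
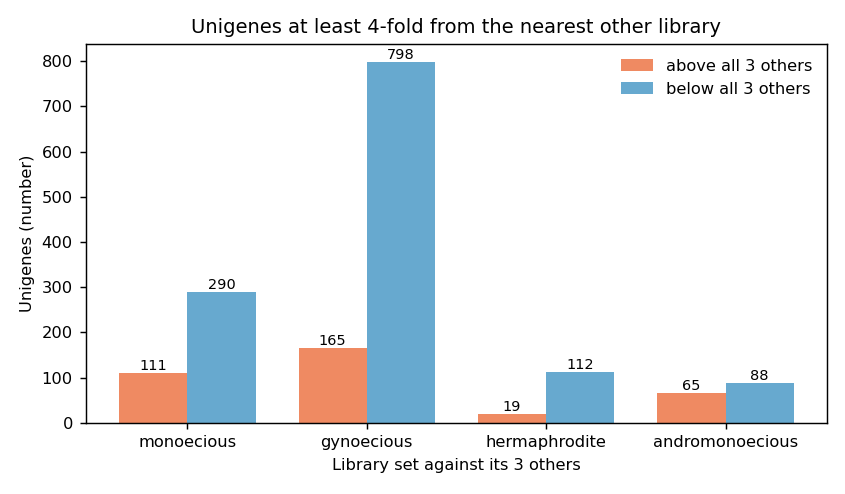
Number of unigenes (y axis) at least 4-fold above (orange) or below (blue) the nearest of the 3 other libraries, for each library in turn (x axis), among 34861 unigenes with at least 100 reads. The gynoecious library has the tallest bars in both directions, 165 above and 798 below.

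Across all unigenes, limma's test of the gynoecious library against the 3 others on log2(RPKM + 1) called 15 of 58639 (0.0256%) at a Benjamini-Hochberg adjusted p under 0.05, 1 of them higher (0.00171%) and 14 lower (0.0239%). RPKM scales reads by the length of the unigene and the total of the library. The spread in this test comes from the 3 other libraries alone, and the gynoecious library is assumed to vary as they do. The p-values therefore measure only the spread between these bulks, and permuting 1 library against 3 could not give a one-sided p below 0.25. The count rests on single libraries: it was 271 without the monoecious, 12 without the andromonoecious and 0 without the hermaphrodite library, where 6080 unigenes still had an unadjusted p under 0.05. edgeR's quasi-likelihood test on recovered reads called 384 (0.655%), 104 higher (0.177%) and 280 lower (0.477%). DESeq2 called 1859 (3.17%), 401 higher (0.684%) and 1458 lower (2.49%). All 15 unigenes called by limma were called by both.

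The potassium channel AKT1 was the only named unigene among the 15. AKT1 takes up potassium across the root cell membrane in Arabidopsis. Unigene51104, with the CDS MELO3C026629, had 868 reads in the monoecious, 28 in the gynoecious, 1626 in the hermaphrodite and 1470 in the andromonoecious library. All 3 others were far above the gynoecious library and within 2-fold of each other on this count. It fell by 4.50 ± 0.53 (SE) on the log2(RPKM + 1) scale (limma adjusted p = 0.0488, edgeR adjusted p = 0.00208). Against the nearest library, the monoecious, its TMM-scaled level was 33.1-fold lower, with a 95% exact binomial interval of 22.7 to 50.1. Intervals of this kind cover counting error only. limma's call was lost without the hermaphrodite library (adjusted p = 0.205), without the andromonoecious (0.0665), with a pseudocount of 0.1 (0.448), with no filter on low values (0.522) and with DESeq2 size factors (0.0506).

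The other 14 had no name in the files. Unigene43994 was the unigene that rose, with 13 monoecious, 431 gynoecious, 15 hermaphrodite and 15 andromonoecious reads. It was 24.9-fold above the nearest library (14.9 to 44.8, limma adjusted p = 0.0451). limma's call was lost under the same 5 settings as that of AKT1, with adjusted p from 0.0506 to 0.522. Unigene17117 fell from abundance to none: it had 5948 monoecious, 12029 hermaphrodite and 22467 andromonoecious reads and 0 in the gynoecious library, at least 2115-fold lower against a floor of 3 reads per library (limma adjusted p = 0.00819). Unigene45989 had 829 monoecious, 0 gynoecious, 415 hermaphrodite and 634 andromonoecious reads, at least 132-fold lower (limma adjusted p = 0.0280). Both were therefore unread in the gynoecious library while each of the 3 others held at least 415 reads. limma called neither without the hermaphrodite library (adjusted p = 0.123 for each), with a pseudocount of 0.1 (0.448) or with no filter (0.522).

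Names were next read only from well matched unigenes, whose CDS match had at least 95% identity over at least 100 nt and 30% of the unigene. Of these, 2478 had at least 100 reads. The gynoecious library lay above all 3 others for 824 (33.3%) and below for 677 (27.3%), at least 2-fold above for 115 (4.64%) and below for 162 (6.54%), and at least 4-fold above for 9 (0.363%) and below for 50 (2.02%). The gap exceeded the range of the 3 others upward for 9.44% and downward for 9.64%. Just inside and outside 4-fold above stood casein kinase I Unigene37053 (4.25-fold) and the receptor-like kinase ALE2 (3.99-fold). The pair below was the lipid transfer protein TRIGALACTOSYLDIACYLGLYCEROL 2 (4.08-fold) and the repair protein RAD26 (3.98-fold).

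**Figure D2:**
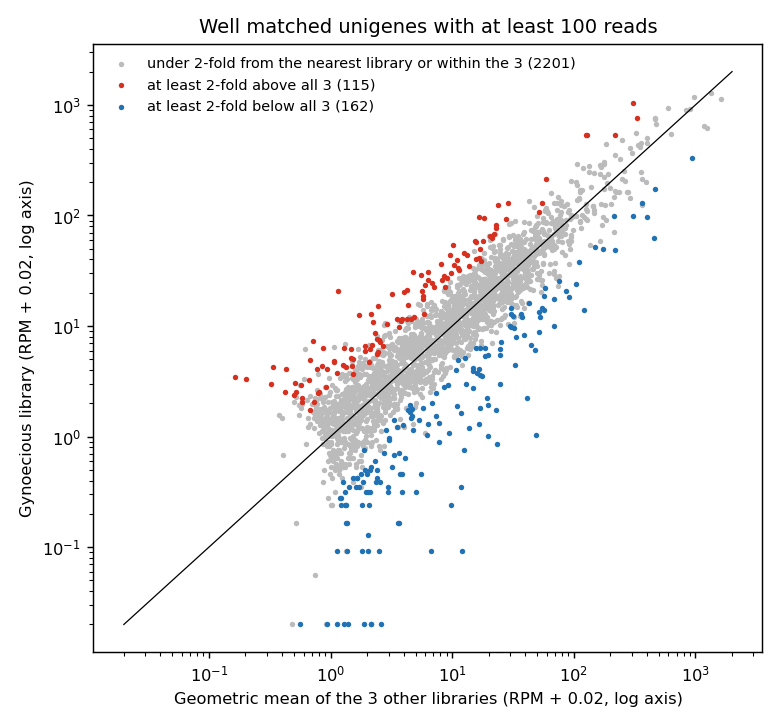
Level of 2478 well matched unigenes in the gynoecious library (y axis) against the geometric mean of the 3 others (x axis), both in TMM-scaled RPM + 0.02 on log axes, with the line of equality. Red points (115) lie at least 2-fold above and blue points (162) at least 2-fold below all 3 others, and several blue points sit on the lowest line, at 0 gynoecious reads.

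The unigenes farthest above the 3 others had varied annotations. Unigene33341 (MELO3C008974), the large-subunit ribosomal protein L35a-1, had 198 gynoecious reads against 16 monoecious, 20 hermaphrodite and 19 andromonoecious, 9.02-fold above the nearest (5.63 to 15.3). The DNA repair scaffold XRCC1, which brings together enzymes that mend broken strands, had 570 gynoecious reads in Unigene34504 against 63, 19 and 21, and was 8.48-fold above the monoecious library (6.53 to 11.2). The 3 others were close together for L35a-1, while for XRCC1 the monoecious library was itself above the remaining 2.

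Several enzymes and regulators followed. The alpha subunit of casein kinase II (Unigene70876) had 81 gynoecious reads against 5 monoecious, 8 hermaphrodite and 12 andromonoecious. In a second casein kinase, Unigene37053, 298 gynoecious reads stood against 65, 55 and 54, libraries in that order. These kinases phosphorylate many proteins. Over all 9 casein kinase unigenes with at least 100 reads, a family picked after its values were seen, 5 lay above all 3 others, where 31.4% of all named unigenes did, and 0 below. Of the 5, Unigene12715 was above by only 1.03-fold, Unigene23978 by 1.27-fold and Unigene48779 by 1.36-fold, with 1 read added. Uridine 5'-monophosphate synthase (Unigene31668), which completes pyrimidine synthesis, had an RPKM of 60.2 in the gynoecious library against 12.4, 10.3 and 12.2, 4.37-fold above (3.70 to 5.19). For this synthase and casein kinase Unigene37053 the 3 other libraries were close together and the gynoecious library stood apart.

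The peroxisomal carrier PMP34 (Unigene15989) had 3383 gynoecious reads against 535 monoecious, 563 hermaphrodite and 784 andromonoecious, 3.74-fold above the nearest (3.46 to 4.04). Peptide transporter PTR3-A (Unigene48784) had 2622 gynoecious reads against 180, 705 and 618. The growth regulator TCP15, a transcription factor that restrains cell division in developing organs, had 94 gynoecious reads in Unigene36262 against 0, 20 and 7. ALE2 (Unigene22054), a receptor-like kinase needed for epidermis formation in Arabidopsis, had 533 gynoecious reads against 91, 54 and 115. The monoecious library was the lowest for PTR3-A and TCP15, the hermaphrodite for ALE2. The remaining 6 of the 15 farthest above were an anthocyanidin 3-O-glucosyltransferase, membralin, an ECM29 homolog, EDRF1 (erythroid differentiation-related factor 1), heat shock protein STI and a UPF0481 protein, at 3.75- to 5.41-fold. None of the 15 passed limma's test (adjusted p 0.151 to 0.335), while 5 passed edgeR's and 10 passed DESeq2.

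The 15 farthest below included 6 with no gynoecious read. L-ascorbate oxidase (Unigene8004), a cell wall enzyme that oxidises vitamin C, had 40 monoecious, 0 gynoecious, 82 hermaphrodite and 50 andromonoecious reads, at least 14.2-fold lower. Potassium channel AKT2/3 (Unigene51103), which carries potassium in the phloem of Arabidopsis, had 22, 0, 48 and 34 in the same order, at least 7.82-fold lower. Other unigenes of the same AKT2/3 CDS were read in the gynoecious library, 19 reads in Unigene52705 and 5 in Unigene69792, so part of that product was present. The other 4 at 0 were a pentatricopeptide repeat protein, the phosphatase HAL2-like, proteasome activator subunit 4 and a Josephin-like protein, at least 5.33- to 9.96-fold lower.

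Peroxisome biogenesis factor 10 (Unigene71615), a membrane protein that imports peroxisomal enzymes, had 481 monoecious, 2 gynoecious, 603 hermaphrodite and 104 andromonoecious reads, 60.1-fold below the nearest (16.2 to 502). A 1-phosphatidylinositol phosphodiesterase (Unigene34347), which cleaves a membrane lipid, had 312, 2, 76 and 223 reads, 36.2-fold below (9.68 to 304). E2FA (Unigene46209), a transcription factor that switches on S-phase genes, had 58, 4, 109 and 128 reads, 15.5-fold below (5.73 to 58.7). In each of these the lowest of the other libraries still held over 10 times the gynoecious level. The related E2FE (Unigene51171) lay among the others, with 148, 154, 151 and 125 reads. Sucrose synthase 2 (Unigene20029) had 210 monoecious, 20 gynoecious, 356 hermaphrodite and 443 andromonoecious reads, 11.2-fold below (7.07 to 18.7). The last 4 were the unc-50 homolog, JMS09K11.8, WDR89 and calnexin 1, at 13.6- to 20.5-fold. Only AKT1 passed limma's test, against 10 of the 15 with edgeR and 15 with DESeq2.

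**Figure D3:**
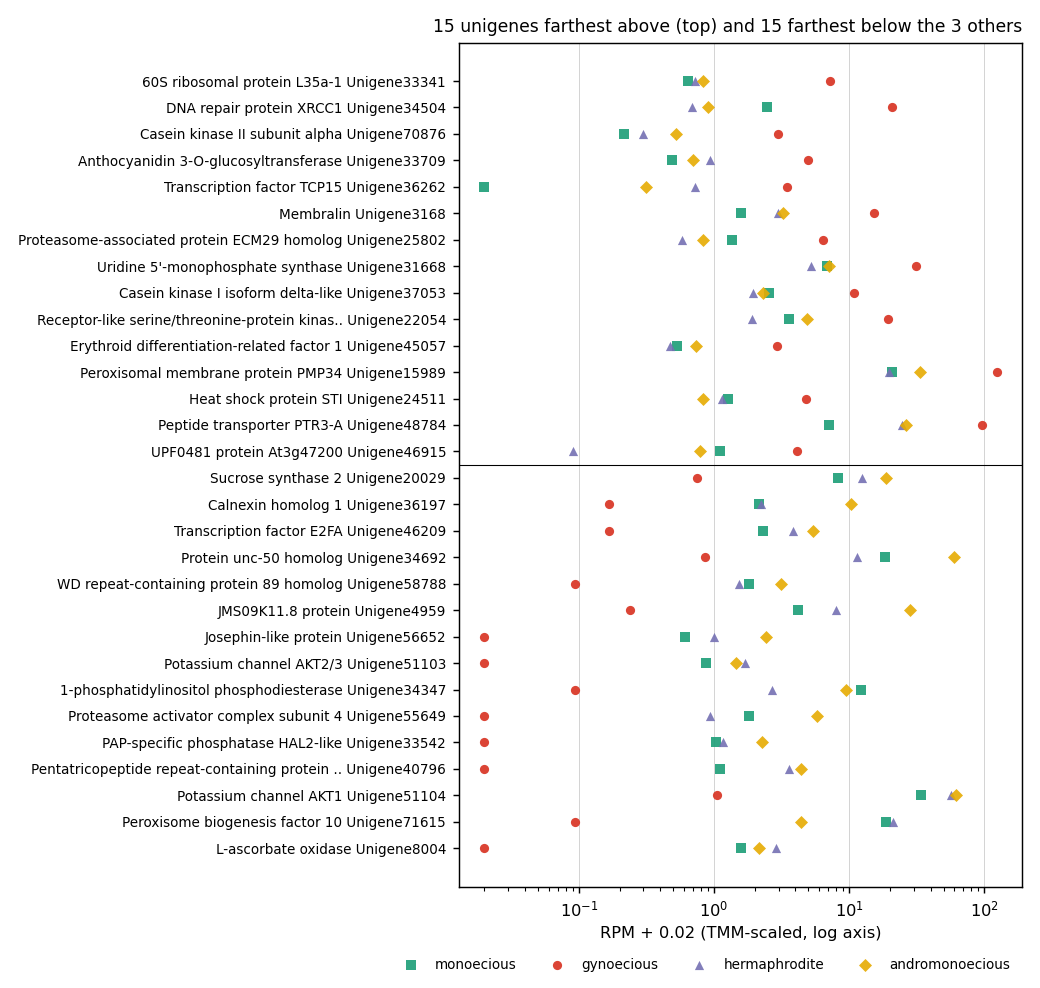
Level of the 15 well matched unigenes farthest above (top) and the 15 farthest below (bottom) in TMM-scaled RPM + 0.02 on a log axis, 1 symbol per library. The gynoecious circle lies right of all 3 others in the top rows and left of them below, and for 6 unigenes it sits at the left edge, at 0 reads.

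Most unigenes named as potassium channels lay low. All 7 with at least 100 reads are given, weak matches included, since the family was picked after the AKT1 values were seen. The gynoecious library was below all 3 others for 6 of them and at least 2-fold below for 5, and above for 0. By comparison 30.6% of all 7154 named unigenes lay below and 8.08% at least 2-fold below. A second AKT1 unigene, Unigene31456, had 2116 monoecious, 130 gynoecious, 2005 hermaphrodite and 3603 andromonoecious reads. KAT1 (Unigene5714), which lets potassium into guard cells when stomata open, had 1713, 157, 920 and 800, and SKOR (Unigene38586), which releases potassium into the xylem, had 1056, 133, 607 and 564. These 3 were weak matches, so their channel type is uncertain. The mildest of the low members was the well matched outward-rectifying channel 6 (Unigene21496), 1.70-fold below with 727, 457, 1411 and 829 reads. The calcium-activated channel Unigene43006 lay among the others, with 48, 89, 85 and 103 reads.

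The wider list of ion channels and transporters depended on which matches were counted. Of its 42 well matched members, 18 lay above and 11 below all 3 others, 2 at least 2-fold above and 4 below, all 4 of them at least 4-fold. Its median log2 ratio to the mean of the 3 others was 0.34, against 0.07 over all well matched unigenes. Over all 85 named members it was -0.06, with 19 at least 2-fold below (22.4%, against 8.08% of all named unigenes) and 2 above (2.35%, against 4.51%). The chloride channel-like CLC-g (Unigene48753) had 22863 monoecious, 1697 gynoecious, 8777 hermaphrodite and 8085 andromonoecious reads, 4.93-fold below (4.68 to 5.19). Upward were a cation/H+ antiporter 4 (Unigene929) with 6, 119, 54 and 30 reads, and the water channel PIP1-2 (Unigene8076) with 144, 352, 163 and 150.

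Unigenes named as ascorbate oxidases or ascorbate oxidase homologs lay low too, and this group was also picked after its values were seen. Most were named as homologs, so their enzyme activity is uncertain. Of 7 unigenes with at least 100 reads, 5 of them well matched, 6 were at least 2-fold below all 3 others, against 8.08% of all named unigenes. The homolog Unigene29287 had 384 gynoecious reads against 4467 monoecious, 1827 hermaphrodite and 3747 andromonoecious. Another homolog, Unigene29284, had 52 against 445, 357 and 841. The 3 other libraries varied among themselves by over 2-fold here, and the gynoecious library lay beneath their whole range. The exception was the weakly matched homolog Unigene12477, with 23, 26, 28 and 43 reads.

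The 4 well matched sucrose synthase and sucrose-phosphate synthase unigenes, enzymes that split or make the sugar moved from leaves to flowers, lay below the 3 others, and sugar carriers went both ways. Of 17 well matched members of the sugar transport and cleavage list, 6 lay above all 3 others and 8 below, and all 8 were at least 2-fold below (47.1%, against 6.54% of all well matched unigenes). Scaled by library totals, 5 of the 17 were at least 2-fold below. Over all 35 named members 9 were (25.7%, against 8.08% of all named unigenes). Sucrose synthase Unigene20028 had 280 monoecious, 35 gynoecious, 344 hermaphrodite and 807 andromonoecious reads, 8.53-fold below (5.99 to 12.5). Sucrose-phosphate synthase 2, which makes sucrose in source tissue, had 169, 34, 91 and 68 reads in Unigene25551 and 126, 45, 146 and 83 in Unigene30974. Of the carriers, sugar transport protein 14 (Unigene3643) was low with 76, 38, 94 and 87, and the sugar phosphate translocator Unigene23866 went the other way, with 10775, 20924, 11593 and 14299. So did a weakly matched sucrose synthase 2, Unigene17069, with 33, 805, 225 and 68, which makes the sucrose synthases a mixed family. The list's median was -0.19, and 0.07 without the hermaphrodite library.

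Ethylene synthesis was looked at in full, whatever its values, because of the a locus. The 3 ACC synthase unigenes were all highest in the gynoecious library and all thinly read. ACC synthase 7 (Unigene78052) was 8.91-fold above the nearest library, the monoecious with 2 reads (2.15 to 78.8). Unigene78536 was 5.20-fold above the andromonoecious library (1.16 to 47.8), and the weakly matched CMA101 Unigene78228 was 2.75-fold above the hermaphrodite (1.17 to 7.19). None reached 100 reads over the 4 libraries, and none was called by limma. One of them, Unigene78536, was under the minimum for the test.

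Unigenes named as ACC oxidase, which turns the precursor into ethylene, or as its homologs showed no common direction. The most read, ACC oxidase 3 (Unigene9955), lay among the others with 349 monoecious, 370 gynoecious, 250 hermaphrodite and 262 andromonoecious reads. The weak matches went both ways, and most were named only as ACC oxidase homologs. Homolog 4 (Unigene27008) had 0, 77, 12 and 29 reads. Homolog 1 had 101, 47, 141 and 76 in Unigene34982 and 26, 12, 23 and 23 in Unigene57664. Unigene3445, named as ACC oxidase itself, had 16, 2, 7 and 9. The putative ACC deaminase Unigene20752, with 511, 622, 665 and 513 reads, lay within the range of the others. S-adenosylmethionine synthase 2 (Unigene64911), the step before ACC, had 0, 5, 7 and 2 reads.

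Both ethylene receptor unigenes lay above all 3 others, where 33.3% of all well matched unigenes did, but receptor 2 by only 1.035-fold with 1 read added. Ethylene receptor 1 (Unigene34761) had 205 monoecious, 620 gynoecious, 311 hermaphrodite and 97 andromonoecious reads, 2.09-fold above (1.82 to 2.41). Receptor 2 (Unigene31890) had 302, 427, 433 and 228, and its gynoecious and hermaphrodite levels were nearly equal after scaling. Among 17 well matched members of the ethylene response list, 7 lay above (41.2%) and 6 below (35.3%), with 1 at least 2-fold in each direction. The low member was the response factor Unigene3498, with 280, 134, 338 and 262 reads.

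**Figure D4:**
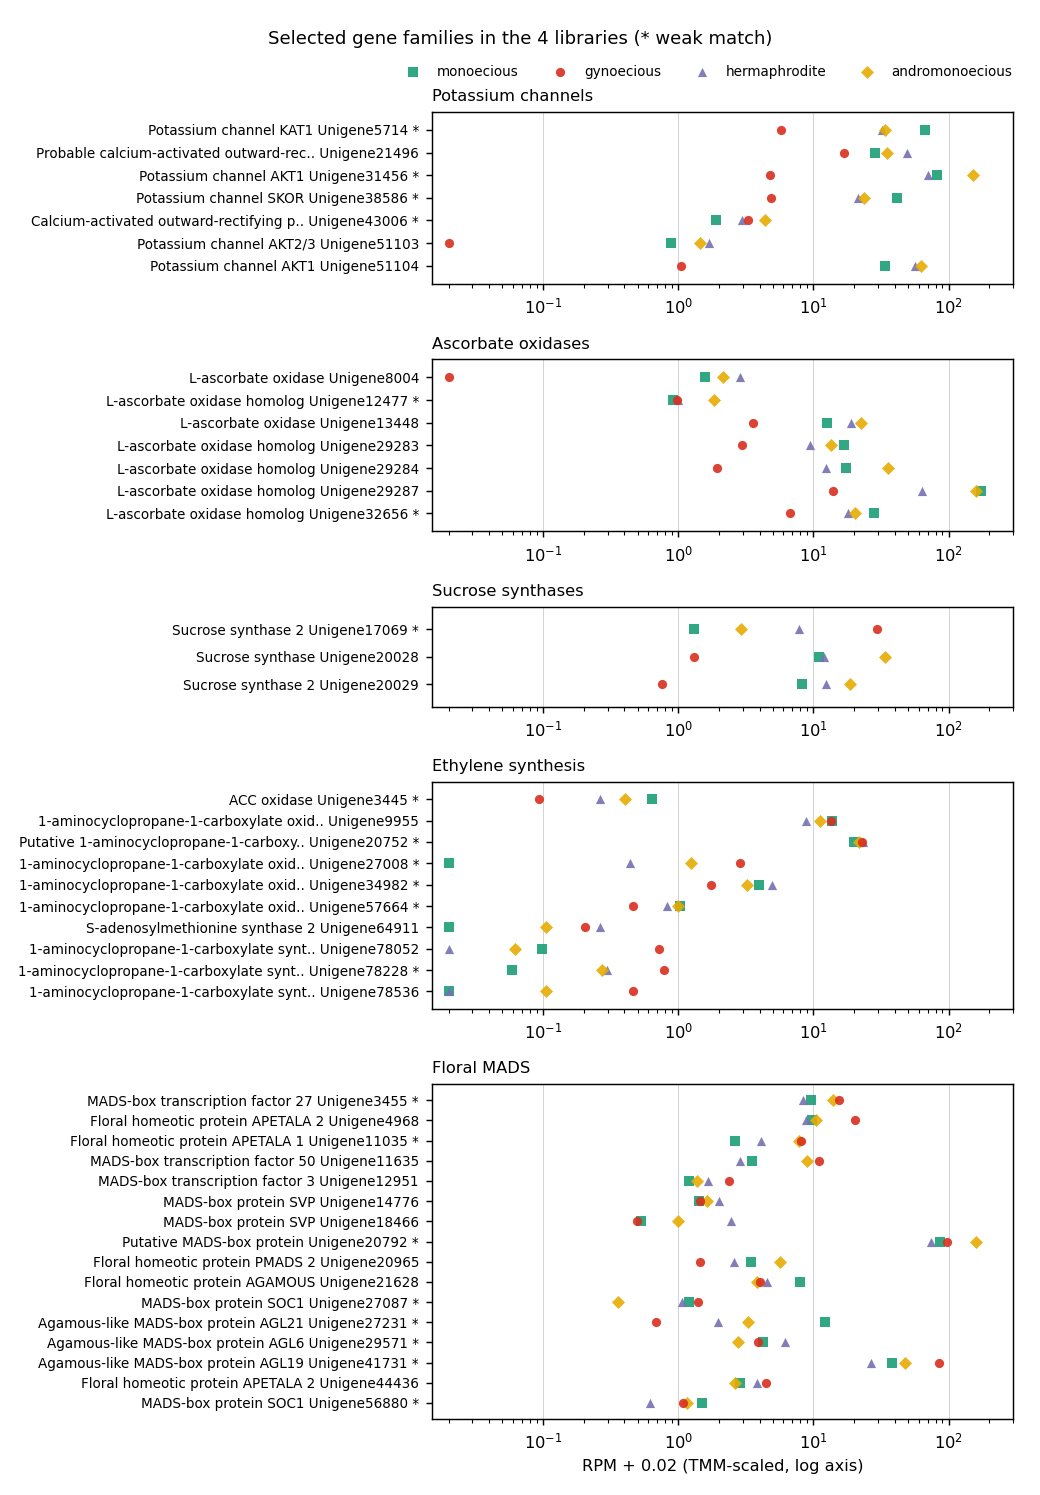
Level in TMM-scaled RPM + 0.02 (log x axis) of each unigene of 5 gene groups, 1 symbol per library, with weak CDS matches starred. Gynoecious circles lie left of the 3 others in most potassium channel and ascorbate oxidase rows, right of them for the 3 ACC synthase unigenes, and mostly within 2-fold of them for floral MADS genes.

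Genes of the floral MADS list mostly lay within 2-fold of the nearest of the 3 others. Some MADS and related homeotic factors specify sepals, petals, stamens and carpels. The list also held other MADS genes such as SVP, SOC1 and AGL21, so it is not one of organ identity genes alone. Of 8 well matched members with at least 100 reads, 4 lay above all 3 others (50%, against 33.3% of all well matched unigenes). Below all 3 lay 2 (25%, against 27.3%). Of the 8, 0 were 2-fold away, where 4.64% of all well matched unigenes were 2-fold above and 6.54% below. Over all 16 named members 1 was 2-fold away, the weakly matched AGL21 (Unigene27231) with 309 monoecious, 18 gynoecious, 56 hermaphrodite and 77 andromonoecious reads. APETALA 2 (Unigene4968), which acts in sepals and petals, had 250 monoecious, 552 gynoecious, 250 hermaphrodite and 247 andromonoecious reads. PMADS 2 (Unigene20965), known from petunia in petals and stamens, had 88, 39, 74 and 133. AGAMOUS (Unigene21628), which specifies stamens and carpels, lay among the others with 204, 109, 129 and 90 reads. The carpel factor SPATULA (Unigene22020) had 110, 117, 177 and 255 reads.

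Markers of male organs were few. The 2 well matched members of the pollen and anther list summed to 5.70 RPM in the monoecious, 1.76 in the gynoecious, 4.53 in the hermaphrodite and 2.87 in the andromonoecious library. An extensin-like unigene (Unigene71612) gave most of this, with 144, 33, 106 and 51 reads, while the anther gene MALE STERILITY 1 (Unigene36443) had 2, 15, 24 and 17. Over all 6 named members, weak matches included, reads summed to 518 monoecious, 572 gynoecious, 716 hermaphrodite and 366 andromonoecious. In that sum the andromonoecious and not the gynoecious library was lowest. Among 5 named members with at least 100 reads, 2 lay above all 3 others (40%, against 31.4% of all named unigenes). Below all 3 lay 1 (20%, against 30.6%). No defining marker was at 0 in the gynoecious library among these.

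Among regulators, single unigenes of the MYB and homeobox groups stood far off while the groups were mixed. One unigene named as APL (Unigene30757), a MYB factor that specifies phloem in Arabidopsis, had 1211 monoecious, 61 gynoecious, 560 hermaphrodite and 1844 andromonoecious reads, 8.75-fold below (6.71 to 11.6). The 8 other unigenes of that name summed to 3197 monoecious, 3621 gynoecious, 4001 hermaphrodite and 4767 andromonoecious reads. The gynoecious library was not lowest in that sum. Another MYB, Unigene42934, had 750, 61, 440 and 389 reads. Upward were MYB305 (Unigene41590), known from petals and nectaries, with 85, 316, 101 and 86, and bHLH104 (Unigene6006), of the iron response, with 48, 582, 188 and 142. Of 44 MYB and bHLH members 13 lay above (29.5%) and 7 below (15.9%), with 3 at least 2-fold each way.

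All 3 HAT5 homeobox unigenes, a group picked after its values were seen, lay below the 3 others, where 27.3% of all well matched unigenes did. Unigene56926 had 112 monoecious, 3 gynoecious, 34 hermaphrodite and 37 andromonoecious reads, 10.8-fold below (3.40 to 55.0). Unigene10997 had 119, 47, 113 and 101 reads. Unigene10995 had 512, 144, 202 and 206, only 1.33-fold below with 1 read added. ATHB-15 (Unigene31587), which patterns vascular tissue and leaf faces, had 240, 44, 624 and 188, 4.93-fold below (3.54 to 7.02). HDG11 (Unigene51149), an epidermal factor, was higher with 321, 1614, 653 and 481, 2.59-fold above (2.37 to 2.85). Of 14 homeobox and YABBY members 3 lay above (21.4%, against 33.3% of all well matched unigenes) and 6 below (42.9%, against 27.3%), with a median of -0.59.

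Genes of the stomatal lineage gave no single pattern. TOO MANY MOUTHS, a receptor that spaces stomata, had 100 monoecious, 8 gynoecious, 99 hermaphrodite and 99 andromonoecious reads in Unigene22566, a gene picked after its values were seen. The 3 other libraries were level and the gynoecious about 10 times lower (10.6-fold with 1 read added). The lineage factors SPEECHLESS, with 2, 49, 102 and 66 reads, and FAMA, with 40, 48, 105 and 58, lay among the others. MUTE was slightly below all 3, with 265, 248, 360 and 481.

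Chlorophyll genes went both ways. Pheophorbide a oxygenase, which opens the chlorophyll ring when leaves yellow, was high in both of its well matched unigenes. Unigene23756 had 150 monoecious, 2597 gynoecious, 870 hermaphrodite and 823 andromonoecious reads, 2.73-fold above (2.53 to 2.96), and Unigene48864 had 63, 563, 253 and 189, 2.34-fold above (2.01 to 2.72). The weakly matched Unigene30769 was not, with 872, 1018, 4232 and 5323. Protoporphyrinogen oxidase (Unigene49423), an early step of chlorophyll and heme synthesis, had 100, 12, 88 and 110 reads, 6.99-fold below (3.81 to 14.0). The photosynthesis list had 9 members, 4 above and 2 below, of which ferredoxin-3 (Unigene2118) was at least 2-fold below with 29542, 9136, 30344 and 15941 reads.

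Cytochrome P450 enzymes, which oxidise hormones and secondary compounds, were often lowest in the gynoecious library but by small steps. Of 30 members, 16 lay below all 3 others (53.3%, against 27.3% of all well matched unigenes) and 3 above, with a median of -0.47, and 1 was at least 2-fold below. That was P450 71B19 (Unigene12095), with 4634 monoecious, 1407 gynoecious, 4335 hermaphrodite and 2805 andromonoecious reads. P450 724B1 (Unigene50634), of the brassinosteroid pathway in rice, was just within 2-fold with 5826, 1607, 3221 and 4122. Auxin-related members lay similarly, 5 of 11 below and 1 above, with 0 at 2-fold.

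Hormone conjugation and flavonoid synthesis each had members on both sides. Cytokinin-O-glucosyltransferase 1, which stores cytokinin as a sugar conjugate, had 178 monoecious, 29 gynoecious, 328 hermaphrodite and 245 andromonoecious reads in Unigene44903, 6.55-fold below (4.40 to 10.1), and 31, 10, 73 and 47 in Unigene78689. Cytokinin-O-glucosyltransferase 3 (Unigene25143) went the other way with 4266, 8348, 5187 and 4327. The first flavonoid enzymes were both low. Chalcone synthase 2 (Unigene50350) had 2903, 1027, 3507 and 2298 reads, and chalcone isomerase (Unigene35072) had 7055, 2707, 10592 and 6713, 2.78-fold below (2.66 to 2.91). An anthocyanidin 3-O-glucosyltransferase (Unigene33709), a late step, was high with 12, 134, 26 and 16. The 3 other unigenes of that name held far more reads, 6857, 12045, 13427 and 6238 in sum, and there the hermaphrodite library was highest.

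Gibberellin enzymes did not share a direction. Gibberellin 20-oxidase (Unigene32555), which makes the hormone's precursor, had 621 monoecious, 1945 gynoecious, 1248 hermaphrodite and 1299 andromonoecious reads. The 3-beta-dioxygenase 1 (Unigene18761), which makes the active form, had 4842, 519, 29 and 2240, so the hermaphrodite and not the gynoecious library was lowest. Of 7 well matched members of the list, 3 lay above and 1 below, with 0 at 2-fold. The weak matches held 1 at 2-fold each way, gibberellin 20 oxidase 1 (Unigene31325) with 63, 394, 73 and 88 reads and a 2-beta-dioxygenase (Unigene14876) with 865, 38, 147 and 347.

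Disease resistance genes leaned upward by small steps. Of 33 members of the defence list, 16 lay above (48.5%, against 33.3%) and 8 below, with a median of 0.39 and 2 at least 2-fold in each direction. RGA2 (Unigene2988), an intracellular immune receptor, had 93 monoecious, 791 gynoecious, 145 hermaphrodite and 222 andromonoecious reads, 3.09-fold above (2.66 to 3.60). The low members were 2 multidrug resistance proteins, which export compounds: Unigene1372 had 588, 49, 403 and 357 reads, and Unigene4775 had 660, 106, 299 and 289.

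Transposon and histone genes gave few members, and the chromatin list was larger. Of 6 transposon-related unigenes 0 lay above and 4 below (27.3% of all well matched unigenes did), with a median of -1.25, but the other libraries differed widely: Unigene30330 had 1505 monoecious, 9 gynoecious, 40 hermaphrodite and 469 andromonoecious reads. A chromatin-remodelling ATPase (Unigene42973) had 2264, 47, 411 and 226, 5.55-fold below (4.04 to 7.78). Of 19 chromatin members 2 lay above (10.5%, against 33.3% of all well matched unigenes) and 6 below (31.6%, against 27.3%). The median of the chromatin list was -0.26, and 0.07 over all 44 named members. Of 8 histone unigenes 3 lay above (37.5%, near the 33.3% of all well matched unigenes) and 0 below. Histone H3.2 (Unigene12948) had 7, 83, 29 and 10 reads, and the list's median of 0.42 was 0.00 without the monoecious library.

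In plastid translation, 1 member stood apart from 3 level libraries. The plastid ribosomal protein S13 (Unigene53326) had 703 monoecious, 2561 gynoecious, 798 hermaphrodite and 675 andromonoecious reads, 3.29-fold above (3.02 to 3.58). The 3 other libraries spanned 0.06 on the log2 scale after scaling, and 4 of 7 organellar ribosomal members lay above (33.3% of all well matched unigenes did). The 50S protein L14 (Unigene17956) lay below, with 6, 0, 139 and 3 reads. Over all 28 named members 5 were at least 2-fold away in each direction, and the median turned from 0.20 to -0.17. In the cytosol, translation factor eIF5A-2 (Unigene1824) was low with 5349, 1370, 5261 and 3314 reads, 2.79-fold below (2.62 to 2.98). Thioredoxin F (Unigene12480), which activates plastid enzymes in the light, was high with 230, 1612, 521 and 520, and peroxidase 53 (Unigene45838) low with 760, 27, 795 and 219, 9.37-fold below (6.26 to 14.5).

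The largest lists lay near the background. Of 130 splicing and RNA processing members 52 lay above (40%) and 32 below (24.6%), with 7 and 5 at 2-fold. Of 121 ubiquitin and F-box members 40 lay above (33.1%) and 35 below (28.9%), and of 92 receptor-like kinases 29 lay above (31.5%) and 21 below (22.8%). The median log2 ratio was 0.19, 0.02 and 0.07 in these lists. Of 35 lists with at least 5 members, 15 had a median below 0.

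**Figure D5:**
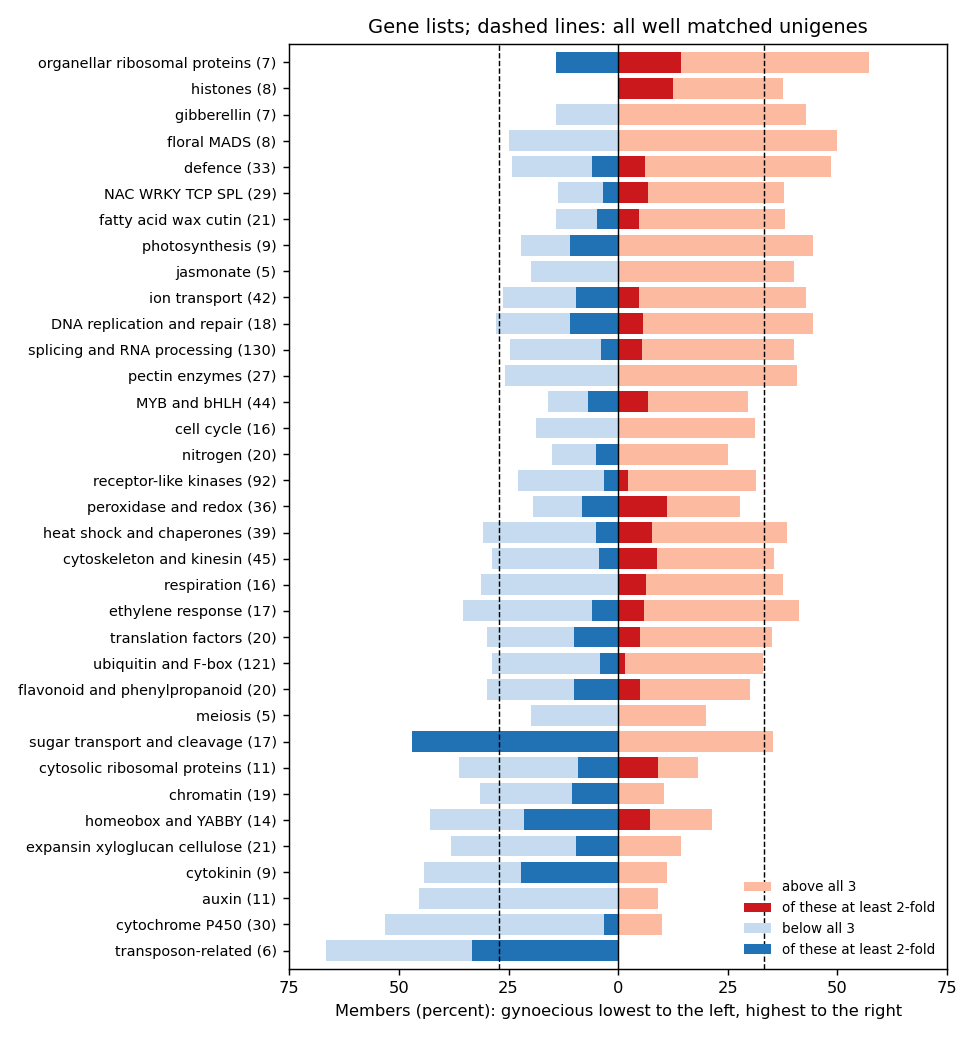
Percent of the well matched members of each gene list (number of members in brackets) whose gynoecious level was above all 3 others (right, red shades) or below all 3 (left, blue shades), with the darker part at least 2-fold away. Dashed lines mark all well matched unigenes, 33.3% above and 27.3% below, and the bars of cytochrome P450 and transposon-related unigenes reach farthest below.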

How the data were processed

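Per the labels' protocols, RNA was extracted from each recombinant inbred line with a Qiagen plant kit and pooled in equal amounts by sex type. The RPKM values were deposited by the authors, 1 file per library. Which assembler and aligner made them is not given in the sources used here. The authors also deposited raw read counts for a gynoecious against monoecious list, whose headers give library totals, and the percent identity of BLAST matches to melon CDS.

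Whole reads were recovered from RPKM and those totals, taking for each unigene the shortest length from 200 to 20000 nt whose reads came out whole, to the last deposited decimal, in every library. This worked for 100% of unigenes. On 1049 unigenes of the deposited list, 1009 (96.2%) had the listed length and reads, and on 1991 simulated unigenes 90.3% were recovered. The authors' log2 ratios in that list were not used, since 152 of 1058 had the opposite sign to the RPKM beside them. None of the CDS identifiers was found in the RefSeq gene table used (assembly USDA_Cmelo_AY_1.0), so no coordinates are given.

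limma 3.58.1 was run on log2(RPKM + 1) over unigenes passing filterByExpr (minimum count 10), with edgeR 4.0.16 and DESeq2 1.42.0 on recovered reads as alternatives. The limma scale understates differences of thinly read unigenes. All were tested on simulated data. Distances to the nearest library used TMM-scaled reads with a prior count of 1 and at least 100 reads over the 4 libraries. Printed folds and their 95% Clopper-Pearson intervals used no prior, and a fold against 0 reads was set against 3 reads. The members and lists were chosen with earlier results of these data known.

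Genes named by rule were the 15 well matched unigenes farthest above and the 15 farthest below the nearest of the 3 others, up to 3 per list and direction at 2-fold, every ethylene synthesis unigene, and up to 2 unannotated unigenes per direction called by limma. Other names were chosen after their values were seen, or are members of a listed group given with its count. Several unigenes can be pieces or near copies of 1 gene, and reads shared among such copies could have been split.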

Additional observations from a re-analysis of the deposited data

How the results depend on the processing

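No paired analysis was possible because each sex type has 1 library. limma's count of 15 became 0 with a pseudocount of 0.1 (5283 unigenes at an unadjusted p under 0.05), 3 with RPKM rescaled by DESeq2 size factors, 0 with no filter on low values (7127 unadjusted), 384 with edgeR and 1859 with DESeq2. It ranged from 0 to 271 when 1 of the 3 others was left out. The cause was not tested. The 165 unigenes at least 4-fold above became 70 with at least 400 reads, 1551 at 2-fold and 20 at 8-fold, and 209 to 293 without 1 library. The 798 below became 387, 2707 and 314 in the same order, and 784 to 1102 without 1 library. Another scaling, a minimum of 50 reads and a prior count of 5 kept both counts within 1.5 times. The number of lists with a median below 0 was 15, and 10 to 17 under the alternatives. Of 118 named unigenes at 2-fold, 5 were under 2-fold when scaled by library totals and 9 with a prior count of 5, and 0 of 120 moved inside the range of the others. Depth limits unigenes with under 100 reads, the ACC synthases among them.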
